A study of Mus musculus with 27 samples.

Results

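Brn3b, the product of Pou4f2, is a POU domain transcription factor of retinal ganglion cells, the neurons whose axons form the optic nerve. The data described here are the AP-positive cells of Brn3b KO and Brn3b HET retinas at postnatal day 3 (P3), a set of 4 libraries out of 27 in the series, taken by their titles. The 2 KO libraries came from C57Bl/6 mice with the genotype Brn3b AP/KO and the 2 HET libraries from C57Bl/6 mice with the genotype Brn3b AP/WT. Both groups carry 1 allele in which alkaline phosphatase (AP) reports the Brn3b locus, so the HET retina has 1 intact copy of the gene and the KO retina has none. AP-bearing cells were caught on magnetic beads that carried an anti-AP antibody, and the unbound retinal cells were kept as a further library of each genotype. Which part of the locus is missing from the null allele is not given in the labels, and a source name entry of the same libraries names Brn3a where the title and the genotype name Brn3b. Nothing in the labels says that the 2 libraries of a group came from separate animals, so every p-value measures the spread between libraries, which may be technical.

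Brn3b acts early in the life of a ganglion cell, downstream of the proneural factor Atoh7 and beside Isl1, and mice without it are known to lose many ganglion cells and to form defective optic axons. Cells that would have become ganglion cells still start to transcribe the mutated locus, which is what an AP allele makes visible. The question put by the comparison is which genes these cells need Brn3b for, 3 days after birth.

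The 4 libraries held 33051393 to 36769807 estimated counts each. The levels below are read counts scaled to a common library size (CPM) after TMM scaling, a correction for unequal library composition, and the fold changes are log2 values of KO over HET from the edgeR quasi-likelihood test, fitted on all 12 AP-positive libraries of the study. A gene is called lower or higher where its adjusted p was under 0.05. Across genes, the correlation of log2 levels was 0.984 between the KO libraries and 0.985 between the HET libraries. With HET replicate 1 it was 0.982 for KO replicate 1, almost as high as within a group, and 0.978 for KO replicate 2. With HET replicate 2 it was lower, at 0.968 for KO replicate 1 and 0.964 for KO replicate 2.

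The loss of Brn3b was visible in the libraries themselves. Pou4f2 (chromosome 8, 78433010 to 78436645, GRCm38) stood at 21.0 and 18.3 CPM in the KO libraries, against 187 and 286 CPM in the HET libraries. Both KO libraries lay far below both HET libraries, and the unbound cells held 6.53 CPM in KO and 13.04 CPM in HET. The log2 fold change was -3.59 (SE 0.28, adjusted p = 0.00288). Its paralogue Pou4f1, which encodes Brn3a, had 61.6 and 86.8 CPM in KO and 168 and 249 CPM in HET. That difference of -1.49 did not pass the test (adjusted p = 0.13), although the groups did not overlap. Pou4f3, the third Brn3 gene, was low, with 3.35 and 7.16 CPM in KO and 8.04 and 9.93 CPM in HET (adjusted p = 0.543).

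Of 16673 genes tested, 569 were called (3.41%), with 525 lower (3.15%) and 44 higher (0.264%) in KO, and 3191 (19.1%) had an unadjusted p under 0.05. The median log2 fold change of all genes was 0.01. In 27.8% of all genes both KO libraries lay below both HET libraries, and in 24.1% both lay above. The number of calls rested on single libraries. Leaving out KO replicate 1 gave 2 calls and KO replicate 2 gave 1, whereas leaving out HET replicate 1 gave 549 and HET replicate 2 gave 2, while each of the 569 genes kept its direction in all of these fits. The genes were chosen by this same difference between the same libraries, so the kept direction is no separate support for it. With only the 4 libraries in the fit no gene was called, and 3164 had an unadjusted p under 0.05. Without Brn3a KO replicate 2, a library of the shared fit whose title and genotype entry name different genes, 635 genes were called, 72 of them higher.

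**Figure D1:**
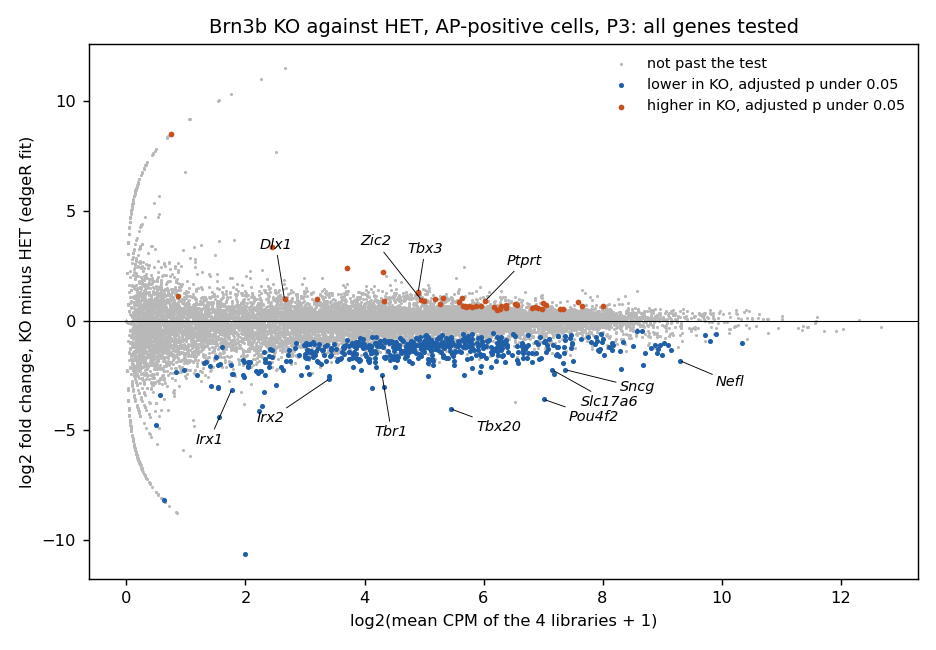
Every gene tested, with the log2 of the mean CPM of the 4 libraries plus 1 on the x axis and the log2 fold change of KO over HET on the y axis. Blue points are the 525 genes called lower in KO, orange points are the 44 called higher, and the curved arms at low levels are genes with no count in 1 group.

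Transcription factors of ganglion cell types were among the genes that fell furthest. Tbx20, a T-box factor, stood at 4.38 and 5.50 CPM in KO and at 56.7 and 104 CPM in HET. Its KO libraries lay near the level of the unbound cells, which held 5.46 CPM in KO and 6.08 CPM in HET. The log2 fold change of -4.02 (SE 0.53, adjusted p = 0.0192) was the largest among lower genes that reached 10 CPM in a group and have a gene name. Tbr1, another T-box factor and a marker of a family of ganglion cell types, had 4.51 and 6.96 CPM in KO and 24.2 and 38.8 CPM in HET (-2.46, SE 0.37, adjusted p = 0.0197). Both HET libraries of Tbr1 were more than 3 times the higher KO library. Eomes, the T-box factor of melanopsin ganglion cells, had 33.5 and 28.3 CPM in KO against 64.2 and 100 CPM in HET, and its difference of -1.41 just missed the threshold (adjusted p = 0.0543).

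Not every T-box gene was lower. Tbx3, which is expressed in the early eye, had 39.5 and 42.4 CPM in KO and 17.0 and 16.6 CPM in HET. The KO libraries were tightly grouped above the HET libraries, and the log2 fold change of 1.29 (SE 0.29, adjusted p = 0.0428) was the largest among higher genes that reached 10 CPM and have a gene name. The unbound cells lay above both groups, at 67.1 CPM in KO and 77.7 CPM in HET. Its close paralogue Tbx2 had 83.1 and 97.4 CPM in KO and 77.8 and 65.1 CPM in HET, which did not pass (adjusted p = 0.37). Of 12 T-box genes tested, 2 were lower (16.7%, against 3.15% of all genes), 1 was higher (against 0.264%) and 9 did not pass.

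The 6 Iroquois homeobox genes are patterning factors that lie in 2 clusters of 3 genes. Of these, 4 were lower (66.7%, against 3.15% of all genes) and 2 did not pass. All 6 had a negative fold change, with a median of -2.09. In the chromosome 13 cluster, Irx2 (72628820 to 72634198) had 1.54 and 3.66 CPM in KO and 12.4 and 20.8 CPM in HET (-2.67, SE 0.42, adjusted p = 0.0197). Irx1 (71957921 to 71963723) had 0.324 and 0.649 CPM in KO and 3.85 and 4.82 CPM in HET, and Irx4 (73260479 to 73269608) had 1.86 and 1.74 CPM in KO and 6.59 and 10.4 CPM in HET. All 3 members of this cluster were called, with no overlap between the groups. On chromosome 8 the members diverged: Irx6 (92674288 to 92680956) had 10.1 and 12.04 CPM in KO and 35.1 and 49.5 CPM in HET and was called (-1.94, SE 0.35, adjusted p = 0.0245). Irx5 (92357796 to 92361456), at 10.0 and 20.3 CPM in KO and 21.1 and 24.3 CPM in HET, and Irx3 (91798525 to 91801916), at 1.11 and 2.28 CPM in KO and 1.02 and 4.67 CPM in HET, did not pass. The Irx3 groups overlapped, and its sign turned when HET replicate 2 was left out (0.73).

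The whole list of 46 ganglion cell regulators shares members with the T-box and Iroquois lists. Of the 46, 11 were lower (23.9%, against 3.15% of all genes), 3 were higher (against 0.264%) and 32 did not pass. The median was -0.47. Further lower members were Ebf1, Isl1, Mef2c and Pou4f2 itself. The KO retina has no intact copy of Pou4f2, so its place among the 11 is no result about the regulators. Isl1, the LIM factor that acts beside Brn3b, had 31.2 and 48.2 CPM in KO and 81.5 and 155 CPM in HET (-1.57, SE 0.34, adjusted p = 0.0398). Mef2c, a MADS-box factor of neurons and other cells, had 33.5 and 39.99 CPM in KO and 60.3 and 77.4 CPM in HET (-0.90, SE 0.16, adjusted p = 0.0241), and its groups did not overlap. Ebf1 and Mef2c are named from this list after their values were seen.

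The 2 other higher regulators were Zic2 and Lmo4. Zic2 (chromosome 14, 122475435 to 122479852), which specifies the ganglion cells whose axons stay on their own side of the brain, had 39.3 and 39.9 CPM in KO and 22.9 and 17.95 CPM in HET (0.95, SE 0.21, adjusted p = 0.0398). Its unbound level was 45.1 CPM in KO and 56.6 CPM in HET, so both bound groups lay below it. Lmo4, a LIM-only cofactor, had 70.3 and 69.6 CPM in KO and 44.0 and 45.6 CPM in HET (0.64, SE 0.10, adjusted p = 0.0197). Dlx1 (chromosome 2, 71528113 to 71533981), a homeobox factor of ganglion and amacrine precursors, had 6.94 and 7.09 CPM in KO and 3.20 and 3.98 CPM in HET (0.97, SE 0.14, adjusted p = 0.0192). It was the only one of 3 Dlx genes tested to pass. Its partner Dlx2 had 2.22 and 1.97 CPM in KO and 1.67 and 1.97 CPM in HET, which overlap.

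**Figure D2:**
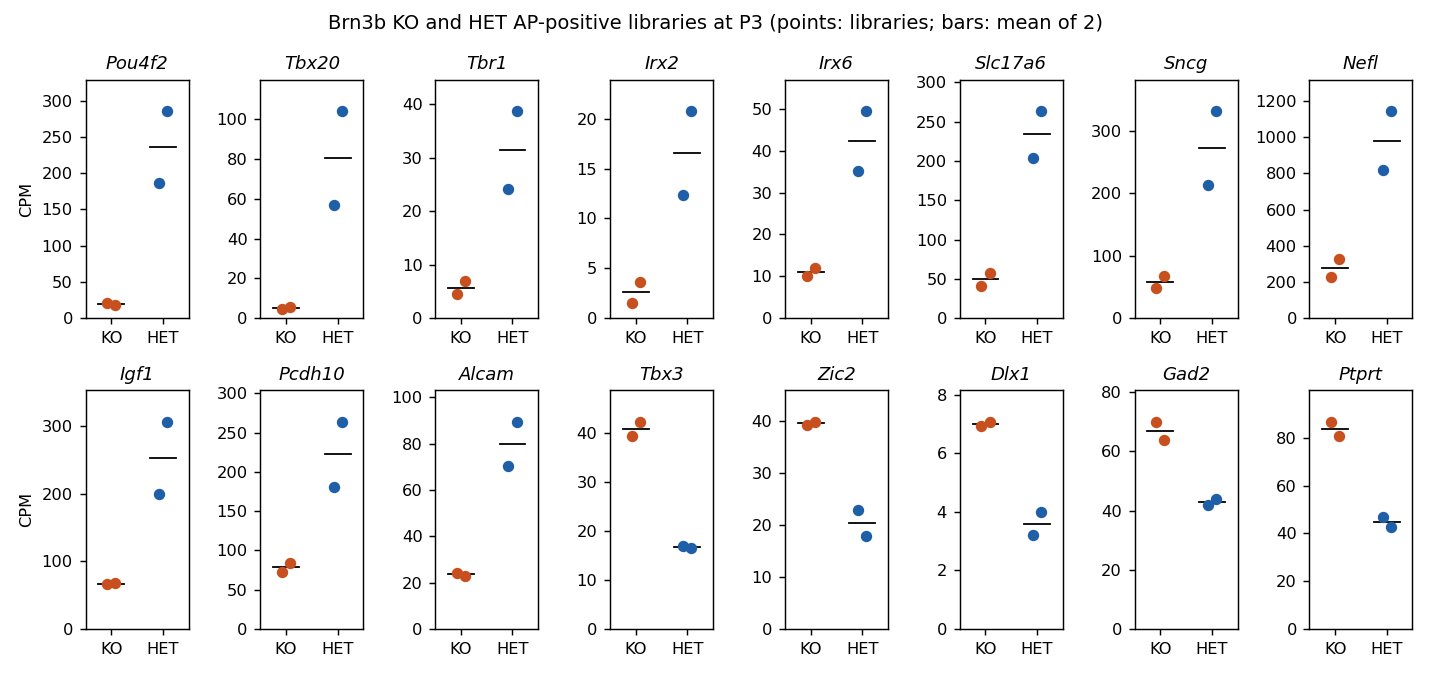
CPM of 16 genes in each library, with KO in orange to the left of HET in blue and a bar at the mean of 2 libraries; each panel has its own y axis from 0. In the 11 genes from Pou4f2 to Alcam both KO points lie below both HET points, and in Tbx3, Zic2, Dlx1, Gad2 and Ptprt both lie above.

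Many genes that mark ganglion cells of all types were lower. Of 26 pan-ganglion cell markers, 14 were lower (53.85%, against 3.15% of all genes), none was higher and 12 did not pass. Their median was -1.50. Without single libraries the median ran between -1.67 and -1.15 and the number called between 0 and 12. Sncg, gamma-synuclein, had 48.1 and 67.3 CPM in KO and 213 and 333 CPM in HET (-2.24, SE 0.43, adjusted p = 0.0291). Rbpms2, a widely used RNA-binding marker, had 26.7 and 37.2 CPM in KO and 91.8 and 136 CPM in HET (-1.83, SE 0.36, adjusted p = 0.0309). Nefl, the light neurofilament, had 229 and 325 CPM in KO and 818 and 1146 CPM in HET (-1.83, SE 0.33, adjusted p = 0.0241). In each of these the lower HET library was at least 2 times the higher KO library.

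Slc17a6, the vesicular glutamate transporter VGLUT2 with which ganglion cells load their transmitter, had 40.7 and 57.9 CPM in KO and 204 and 264 CPM in HET. The KO libraries lay close to the unbound cells, at 29.5 CPM in KO and 36.4 CPM in HET, and the log2 fold change was -2.25 (SE 0.37, adjusted p = 0.0197). Summed over the 26 markers, the bound cells held 2256 and 2568 CPM in KO and 4929 and 7007 CPM in HET, while the unbound cells held 1761 CPM in KO and 2043 CPM in HET. The ganglion cell sum of the bound cells was thus above that of the unbound cells in both genotypes, by a smaller margin in KO. In bulk RNA, fewer cells of a type and less RNA per cell cannot be told apart.

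Stretches before the start sites of Slc17a6, Tbr1 and Tbx20 are shown because these genes fell far and bear on the question whether an AT-rich element of the kind bound by Brn3 proteins lies at the start of genes that fell. The search was chosen after the values were seen. Capitals mark a match to TAATTAAT on either strand, read 5′ to 3′ in the direction of the gene, from the RefSeq promoter table of GRCm38.p6.
Slc17a6, chr7:51624508-51624607, plus strand, before the second of its listed starts: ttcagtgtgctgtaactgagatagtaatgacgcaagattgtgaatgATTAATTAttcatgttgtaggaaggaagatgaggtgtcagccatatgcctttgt
Tbr1, chr2:61804353-61804452, plus strand: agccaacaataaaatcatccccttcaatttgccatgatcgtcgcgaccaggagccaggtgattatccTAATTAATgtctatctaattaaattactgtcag
Tbx20, chr9:24774304-24774403, minus strand: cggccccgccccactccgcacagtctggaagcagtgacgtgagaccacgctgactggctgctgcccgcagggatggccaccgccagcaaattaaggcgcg
The match began 83 bases before the Slc17a6 start and 33 bases before the Tbr1 start, and the Tbx20 stretch holds none. Both of these starts lie inside the span of their gene, which begins at 51621830 for Slc17a6 and at 61802930 for Tbr1, and the 100 bases before the first listed Slc17a6 start hold no match.

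Promoter windows were found for 377 of the 525 lower genes and 31 of the 44 higher genes, with several per gene in places. They run from 250 bases before to 50 after the start, and only the 250 bases before it were searched. TAATTAAT, whose other strand reads ATTAATTA, was in 0.772% of 518 windows of lower genes (Slc17a6, Tbr1, Mef2c and Ptgs1), in none of 36 windows of higher genes and in 0.788% of all 32851 windows. ATTAAT, which reads the same on both strands and lies within TAATTAAT, was in 4.05% of the windows of lower genes and 4.39% of all. GCATAATT, or AATTATGC on the other strand, was in 1.16% of the windows of lower genes, 6 of them, and in 0.457% of all. A match is a description of the sequence and not a binding site.

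A list for melanopsin ganglion cells, the cells that sense light by themselves, had a median of -1.41. Of its 12 members tested, 5 were lower (41.7%, against 3.15% of all genes). These were Tbx20, Irx1, Tbr1, Igf1 and Adcyap1, of which the first 3 belong to the factor lists as well. Tbr1 is described above as a marker of a family of ganglion cell types. Its fall is therefore not particular to melanopsin cells. Igf1, a secreted growth factor, had 66.6 and 67.5 CPM in KO and 199 and 307 CPM in HET (-1.91, SE 0.44, adjusted p = 0.0475). Adcyap1, which encodes the peptide PACAP, had 3.11 and 5.14 CPM in KO and 9.47 and 12.4 CPM in HET (-1.41, adjusted p = 0.0371). Opn4, melanopsin itself, had 7.51 and 8.12 CPM in KO and 20.7 and 27.2 CPM in HET, which did not overlap and did not pass (adjusted p = 0.173). Of 32 markers of other ganglion cell types, 3 were lower (9.4%, against 3.15% of all genes) and 29 did not pass. The 3 were the cadherin Cdh6, the prostaglandin enzyme Hpgd and the tachykinin precursor Tac1.

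Slc6a4, the serotonin transporter, which developing ganglion cells are known to use for a short time, had 5.03 and 4.85 CPM in KO and 18.1 and 29.1 CPM in HET (-2.26, SE 0.40, adjusted p = 0.0237). Slc18a2, the vesicular monoamine transporter, had 16.4 and 22.6 CPM in KO and 54.0 and 85.4 CPM in HET (-1.84, SE 0.35, adjusted p = 0.028). Htr1b, a serotonin receptor, had 8.51 and 11.8 CPM in KO and 29.4 and 35.0 CPM in HET (-1.66, SE 0.29, adjusted p = 0.0236). The groups did not overlap for any of the 3. Slc18a2 and Htr1b were chosen after their values were seen, from no fixed list of serotonin genes.

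Several genes of the growing axon were lower. Of 30 axonal cytoskeleton and transport genes, 6 were lower (20%, against 3.15% of all genes), 24 did not pass and the median was -0.95. Kif5a, a motor of fast axonal transport, had 203 and 244 CPM in KO and 491 and 746 CPM in HET (-1.47, SE 0.28, adjusted p = 0.0292). Gap43, a growth cone protein, had 149 and 174 CPM in KO and 334 and 488 CPM in HET (-1.35, adjusted p = 0.048). Of 52 axon guidance genes only 2 were called, close to the share among all genes, and the median was -0.06. Unc5d, of the netrin receptor family, was lower, at 9.10 and 8.25 CPM in KO and 19.3 and 28.6 CPM in HET (-1.46, adjusted p = 0.0215). Slit2, a repellent ligand, was higher, at 66.9 and 56.9 CPM in KO and 36.01 and 42.5 CPM in HET (0.66, adjusted p = 0.0449), and its receptor Robo1 missed the threshold at 0.73 (adjusted p = 0.0836).

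Adhesion molecules of several families were lower. Of 55 adhesion and recognition genes, 12 were lower (21.8%, against 3.15% of all genes) and 43 did not pass, with a median of -0.69. Alcam, an immunoglobulin-family adhesion molecule of ganglion cell axons, had 24.2 and 23.0 CPM in KO and 70.3 and 89.5 CPM in HET. Its log2 fold change of -1.76 (SE 0.15, adjusted p = 0.00387) had the smallest adjusted p after Pou4f2 among the named genes. Pcdh10, a protocadherin, had 72.5 and 84.0 CPM in KO and 181 and 264 CPM in HET (-1.51, SE 0.22, adjusted p = 0.0192). Cntn1, a contactin, had 172 and 192 CPM in KO and 299 and 361 CPM in HET (-0.86, SE 0.13, adjusted p = 0.0197).

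Of 34 voltage-gated channel genes, 11 were lower (32.35%, against 3.15% of all genes) and 23 did not pass, with a median of -0.80. Sodium channels were among those lower. The pore subunits Scn1a, Scn2a1 and Scn3a had log2 fold changes of -1.60, -1.60 and -1.58, with adjusted p of 0.0197, 0.0311 and 0.0197. Scn3a, for one, had 35.9 and 39.2 CPM in KO and 87.6 and 137 CPM in HET. Kcna6, a potassium channel of axons, had 24.8 and 26.99 CPM in KO and 54.4 and 62.8 CPM in HET (-1.18, SE 0.24, adjusted p = 0.0337). The groups did not overlap for either gene.

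Among all genes 3.15% were lower, and counts as small as those below say little about a list. Of 32 synaptic vesicle and release genes 3 were lower (9.4%), Slc17a6, Syt13 and Syn2, and the median was -0.65. Of 21 glutamate receptor genes 2 were lower (9.5%), Grin2d and Grin3a, with a median of -0.67. Of 26 receptor genes for GABA, glycine and acetylcholine 2 were lower (7.7%), with a median of -0.70. They were Gabrg3 and Chrna6, the nicotinic subunit that also marks ganglion cells. With the P3 libraries alone in the fit 9, 6 and 7 members of these 3 lists were lower. Grin2d, a juvenile subunit of NMDA receptors, had 7.08 and 6.31 CPM in KO and 20.3 and 29.5 CPM in HET (-1.90, SE 0.31, adjusted p = 0.0197). Among 19 neuropeptide genes Gal, Adcyap1 and Tac1 were lower (15.8%), and of 15 neurotrophic factor receptor genes Ntrk3, the receptor of neurotrophin-3, was (6.7%). Gal, galanin, had 1.19 and 1.22 CPM in KO and 5.14 and 4.85 CPM in HET (-2.05, SE 0.26, adjusted p = 0.0192). Of 9 copine genes, a family that related work took from these same samples and that is no independent list, Cpne9 was lower (11.1%).

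Outside the lists, the large falls included several membrane and synaptic proteins. Lrp1b, a large endocytic receptor, had 4.24 and 2.80 CPM in KO and 20.3 and 38.2 CPM in HET (-3.05, SE 0.35, adjusted p = 0.0192). Prrt2, a presynaptic regulator of release, had 4.40 and 3.87 CPM in KO and 26.3 and 41.5 CPM in HET (-3.03, SE 0.37, adjusted p = 0.0192). Synpr, a synaptic vesicle protein, had 43.4 and 45.6 CPM in KO and 201 and 286 CPM in HET (-2.45, SE 0.41, adjusted p = 0.0197). All 3 had KO libraries far below HET, and the KO libraries of Prrt2 and Synpr were close together. The remaining named genes of this rank were Myo5b, Ctxn3, P2rx3, Clstn2 and Pcp4, with log2 fold changes between -2.51 and -2.34.

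The genes that were higher in KO had smaller fold changes. After Tbx3, the largest changes among named genes with 10 CPM or more were in Gpsm2, a regulator of spindle orientation (1.26), the membrane protease Mmp14 (1.02), Kbtbd11 (1.01), Nhsl1 (0.99) and the DNA methyltransferase Dnmt3b (0.97). Gpsm2 had 32.0 and 49.8 CPM in KO and 18.6 and 15.6 CPM in HET (SE 0.28, adjusted p = 0.0429), and its unbound level was 61.5 CPM in KO and 61.7 CPM in HET. Ptprt, a receptor phosphatase of synapses, had 86.9 and 80.9 CPM in KO and 46.8 and 42.8 CPM in HET (0.91, SE 0.19, adjusted p = 0.0386), against 54.3 CPM in unbound KO and 55.4 CPM in unbound HET cells. The nuclear receptor Nr2f2 was at the lower end of the 15, at 0.75 (adjusted p = 0.0457).

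The called genes were also set against the unbound cells of both genotypes. Since the genes were chosen for their difference between KO and HET, the smaller margin of the lower genes in KO, and the opposite for the higher genes, follows from that choice. Of the 525, both KO libraries lay above both unbound libraries for 339 (64.6%, against 28.3% of all genes), and both HET libraries for 520 (99.1%, against 33.5% of all genes). The median log2 difference from the unbound cells was 0.40 in KO and 1.82 in HET. Of the 44 higher genes, both KO libraries lay below both unbound libraries for 19 (43.2%, against 26.0% of all genes). Both HET libraries did so for 39 (88.6%, against 33.1% of all genes). Both KO libraries lay above for 10 (22.7%), a smaller share than the 28.3% of all genes. These 10 include Ptprt, Dlx1, Th and the polarity genes Fzd3 and Pard3, chosen here by that position. There is 1 unbound library per genotype, so these are descriptions with no test.

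Few markers of other retinal neurons were called, and counts this small say little about a list. Of 24 amacrine markers 2 were higher, against 0.264% of all genes, and none lower, with a median of 0.68. With DESeq2, 6 of them were higher and 2 lower. Gad2, which makes GABA, had 70.1 and 64.0 CPM in KO and 42.0 and 44.1 CPM in HET (0.64, SE 0.15, adjusted p = 0.0493). Th, tyrosine hydroxylase of dopaminergic amacrine cells, was low in both groups, with 0.946 and 1.32 CPM in KO and 0.457 and 0.598 CPM in HET (adjusted p = 0.048). None of 11 horizontal cell and 22 photoreceptor markers was called. Of 14 bipolar markers 2 were lower (14.3%, against 3.15% of all genes), Isl1 and Irx6, both also on the ganglion cell lists. Of 22 cell death and axon injury genes only the cell cycle inhibitor Cdkn1a was called, lower (4.5%, against 3.15% of all genes). Cdkn1a had 17.5 and 22.5 CPM in KO and 40.1 and 46.5 CPM in HET (-1.11, adjusted p = 0.0236).

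**Figure D3:**
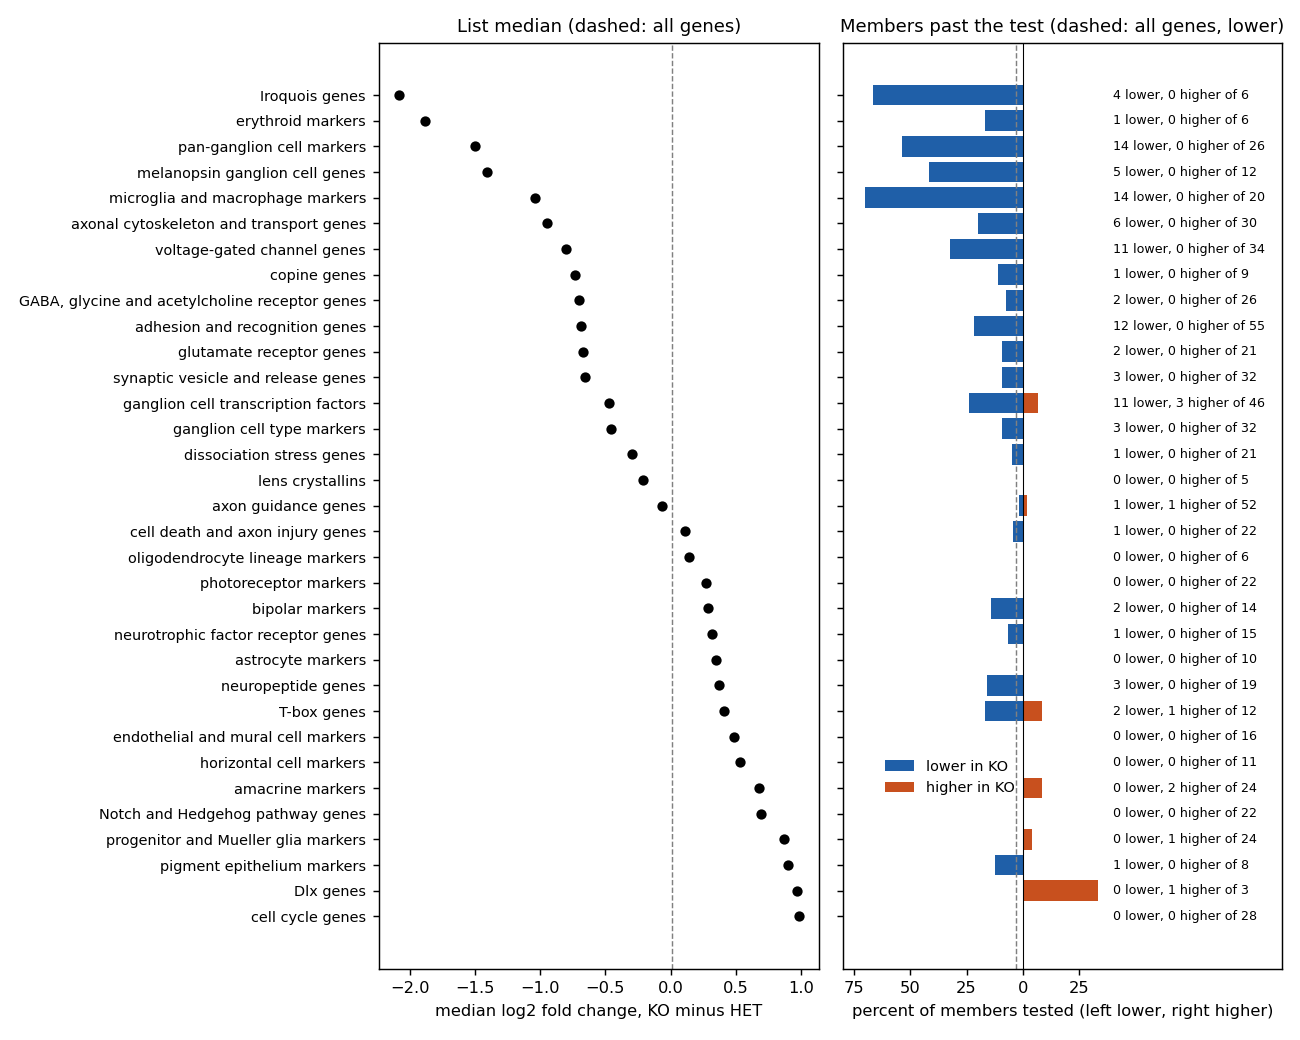
The 33 gene lists, ordered by median. Left, the median log2 fold change of KO over HET of the members tested, with a dashed line at the median of all genes (0.01); right, the percent of members called lower (blue, leftward) and higher (orange, rightward), with a dashed line at the share of all genes called lower (3.15%).

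Many markers of microglia, the resident immune cells of the retina, were lower as well. Of 20 microglia and macrophage markers 14 were lower (70%, against 3.15% of all genes), none was higher and 6 did not pass. Their median was -1.04. Without single libraries the median ran between -1.25 and -0.87 and the number called between 0 and 11. P2ry12, a purine receptor of microglia, had 179.5 and 157 CPM in KO and 334.5 and 433 CPM in HET (-1.19, SE 0.21, adjusted p = 0.0236). The summed level of the 20 was 2348 and 1841 CPM in KO and 3841 and 4769 CPM in HET, but only 38.3 CPM in the unbound KO and 54.1 CPM in the unbound HET cells, so these markers belonged to the bead-bound fraction. Their part in the lower genes was not tested.

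Progenitor and cell cycle genes had positive medians. Of 24 progenitor and Mueller glia markers only Six3 was called, higher (against 0.264% of all genes), and the median was 0.87. The summed level was 2968 and 4854 CPM in KO and 2579 and 2202 CPM in HET, with 5998 CPM in the unbound KO and 7098 CPM in the unbound HET cells. None of 28 cell cycle genes was called (5 were higher with DESeq2) and their median was 0.98, with a sum of 1132 and 2847 CPM in KO and 1014 and 900 CPM in HET. KO replicate 2 stood apart in this sum, KO replicate 1 was close to HET, and without single libraries the median ran between 0.20 and 1.54. The part of these markers in the higher genes was not tested. None of the endothelial (16), astrocyte (10), oligodendrocyte (6), lens (5) or Notch and Hedgehog (22) genes was called. Among erythroid, pigment epithelium and dissociation stress genes 1 each was lower (16.7%, 12.5% and 4.8%, against 3.15% of all genes). They were Hba-a1, Lrat and Klf2. Hba-a1 shares reads with its near copy Hba-a2 and is uncertain.

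**Figure D4:**
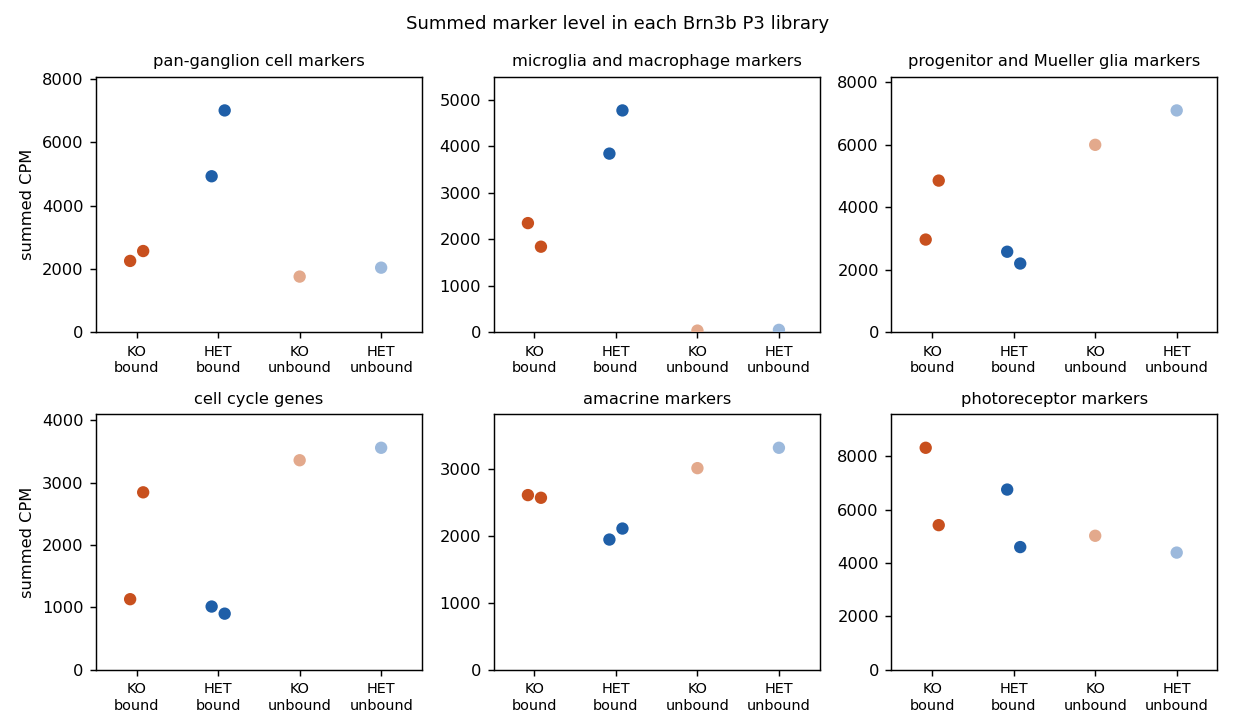
Summed CPM of 6 marker lists in the KO and HET bound libraries (2 points each, orange and blue) and in the KO and HET unbound libraries (1 paler point each), each panel from 0. Bound and unbound sums use TMM factors from different sets of libraries. Ganglion cell and microglia sums are lower in both KO libraries than in both HET libraries, and the cell cycle sum is high in 1 KO library only.

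The same comparison was made in embryos at E15, with 2 KO and 2 HET libraries that share none with P3. There 308 genes were called (1.85%), 197 lower (1.18%) and 111 higher (0.666%). Lower at both ages were 72 genes, 13.7% of the P3 list and 36.5% of the E15 list. Higher at both were 7, 15.9% of the P3 list and 6.31% of the E15 list, namely Dlx1, Dnmt3b, Gad2, Lmo4, Ptprk, Th and Zic2. Of the 525 lower genes at P3, 453 had a negative fold change at E15, which compares with 54.1% of all genes, and of the 44 higher genes 34 had a positive one, which compares with 44.9% of all genes.

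Tbx20, Irx6 and Slc6a4 were lower at both ages. At E15 Tbx20 had 2.97 and 1.83 CPM in KO and 63.9 and 45.8 CPM in HET (-4.51, adjusted p = 0.00464). Irx6 had 1.42 and 2.57 CPM in KO and 34.8 and 28.03 CPM in HET there (-3.97, adjusted p = 0.00221), and Slc6a4 had 1.33 and 0.748 CPM in KO and 35.0 and 17.0 CPM in HET (-4.64, adjusted p = 0.00221). The E15 fold change of each was larger in size than at P3, but none of the 3 differences between ages passed the interaction test (adjusted p = 0.818, 0.195 and 0.184). Eomes, short of the threshold at P3, was called lower at E15, at 18.4 and 10.8 CPM in KO and 235 and 144 CPM in HET (-3.70, adjusted p = 0.00221). Tbr1 was at 0.836 and 0.329 CPM in KO and 0.341 and 0.548 CPM in HET at E15, below 1 CPM in every library of that age.

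The effect of Brn3b loss differed between P3 and E15 in 32 genes (0.192%) by the interaction test, 31 of them with a lower value at P3 (0.186%) and 1 with a higher (0.006%), and 1962 had an unadjusted p under 0.05 (11.8%). The number rested on single libraries. Without a KO library it was 8 and 12 at P3 and 1 and 11 at E15 (replicates 1 and 2 in turn), and without a HET library it was 35 and 3 at P3 and 71 and 6 at E15. It was 21 without Brn3a KO replicate 2. Cntn1 was lower at P3, as given above, and higher at E15, at 205 and 210 CPM in KO and 97.2 and 85.4 CPM in HET (difference between ages -2.04, SE 0.19, adjusted p = 0.00695). Csmd3, a large membrane protein of neurons, had 4.51 and 2.62 CPM in KO and 9.58 and 16.6 CPM in HET at P3. At E15 it had 25.6 and 26.2 CPM in KO and 4.64 and 4.76 CPM in HET, so the sign of the effect turned (difference -4.33, SE 0.48, adjusted p = 0.0125). Csmd3, Cntn1, Ostf1, Man1c1 and Plcb1 were the 5 genes called in opposite directions at the 2 ages, the last 3 named after their values were seen.

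Th and Dlx1 were higher in KO at both ages and far more so in the embryo. At E15 Th had 275 and 248 CPM in KO and 12.3 and 10.6 CPM in HET (4.51, SE 0.20, adjusted p = 1.67e-05). Dlx1 had 274 and 276 CPM in KO and 40.1 and 38.2 CPM in HET at that age (2.81, SE 0.14, adjusted p = 2.22e-05). The difference between ages was -3.40 for Th (adjusted p = 0.00695) and -1.84 for Dlx1 (adjusted p = 0.0102). Slc32a1, the vesicular GABA transporter, was not called at P3, at 25.5 and 25.7 CPM in KO and 17.3 and 13.04 CPM in HET, and was called higher at E15, at 44.4 and 42.4 CPM in KO and 1.60 and 1.27 CPM in HET (difference -4.16, SE 0.43, adjusted p = 0.0102).

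**Figure D5:**
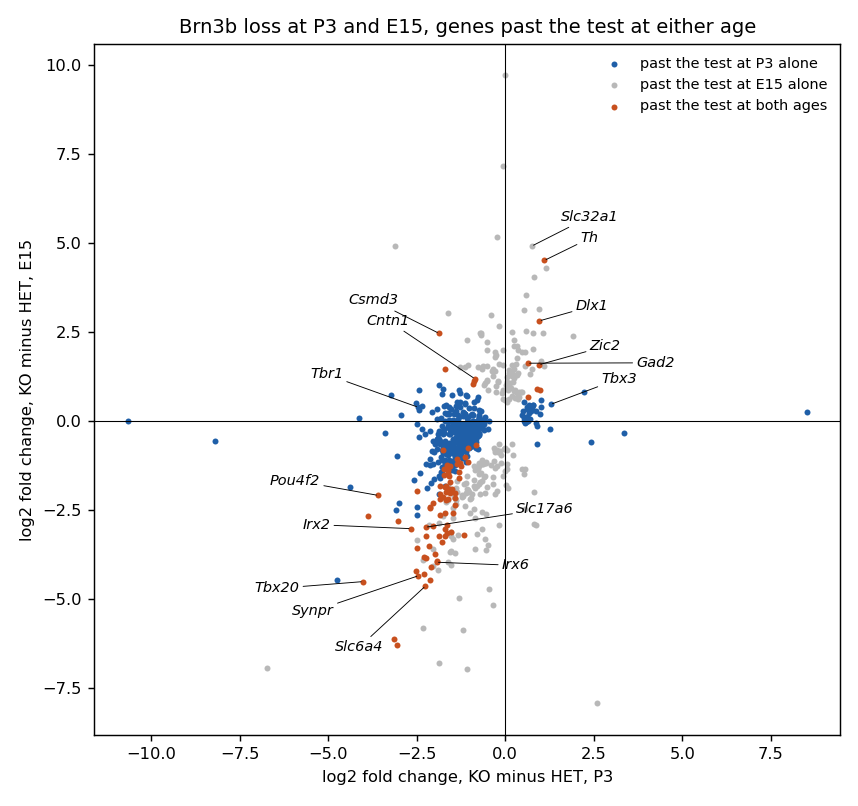
Log2 fold change of KO over HET at P3 (x axis) against that at E15 (y axis) for genes called at either age. Orange points are called at both ages, most of them lower at both; Csmd3 and Cntn1 lie at upper left, lower at P3 and higher at E15.

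At P3 the study also holds AP-positive cells of Brn3a KO and HET retinas, which share no library with the Brn3b groups. There 3 genes were called (0.018%), 2 higher (0.012%) and 1 lower (0.006%), with 432 (2.59%) at an unadjusted p under 0.05. Brn3a KO replicate 2 is the library whose genotype entry disagrees with its title. On the second axis of a principal component analysis of the AP-positive libraries it lay at 7.99, against 28.7 for Brn3a KO replicate 1. The Brn3a HET libraries lay at 21.6 and 20 on that axis. The part of this library in the small number of calls was not tested. A test of the difference between the effects of Brn3b and Brn3a loss called 2 genes (0.012%), 1 in each direction (0.006% each), with 1471 (8.82%) at an unadjusted p under 0.05. These were Pou4f2, which checks the labels (difference -4.01, adjusted p = 0.0136), and Dlx1 (2.38, adjusted p = 0.0354). Dlx1 had 0.305 and 0.388 CPM in Brn3a KO and 0.982 and 0.884 CPM in Brn3a HET cells, all below the Brn3b libraries. No gene was called without Brn3b KO replicate 1 or without Brn3a HET replicate 1, and 1 or 2 were called without any other single library of the 8 compared. Without Brn3b KO replicate 2, and without Brn3a HET replicate 2, the 1 gene called was neither Pou4f2 nor Dlx1. The log2 fold change of Tbx20 was -4.02 with Brn3b loss and -0.08 with Brn3a loss, a difference that did not pass (adjusted p = 0.124). Brn3a KO cells held 0.58 and 2.24 CPM of it and Brn3a HET cells 1.25 and 1.74 CPM. One gene was called in the same direction in both comparisons, the predicted gene Gm6984, named after its values were seen.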

How the data were processed

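RNA was measured in bead-bound AP-positive and unbound retinal cells. The labels' protocols give a stranded mRNA kit and single-end reads of 76 bases, with 1 lane for each library. The authors deposited estimated counts per transcript, not normalized between libraries; Trimmomatic 0.32, Bowtie2 2.2.1 and eXpress 1.3.1 with GRCm38.p3 are named in the submitters' processing notes, and use of strand in counting is not given in the sources used here, so antisense and overlapping genes and near-identical copies are uncertain. The deposited percent GC and the transcript lengths entered no fit.

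The expected counts of 88198 transcripts were summed per gene ID (30735 genes), then made whole by rounding. Gene ID gave back the names of 27 genes listed under calendar dates. edgeR 4.0.16 (R 4.3.3) fitted all 12 AP-positive libraries as 6 groups with TMM scaling, filterByExpr at a minimum count of 10, the quasi-likelihood F-test and Benjamini-Hochberg adjustment over 16673 genes (6 residual degrees of freedom, biological coefficient of variation 26.3%). Every adjusted p is from this fit where no other tool is given. The SE of a log2 fold change was taken from it and the F value. Interaction contrasts compared the KO effect between ages and between Brn3b and Brn3a. CPM of unbound libraries used TMM factors of all 18 retinal libraries. The counts of called genes above or below the unbound cells used these factors on both sides. In single-gene values and marker sums the bound CPM used factors of the 12 AP-positive libraries, so bound and unbound values there differ in scaling. No batch or date is given.

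The comparison, the 33 gene lists and the tests were chosen with earlier results of these data known, so no list gets a test of its own; lists share members. Named are the Brn3 genes, the 15 higher and 15 lower called genes of largest fold change (predicted genes passed over, groups not overlapping, mean level 10 CPM or more in the higher group), up to 6 members of each list by p (all members of lists of 13 or fewer), and up to 5 genes in each direction of an interaction; exceptions are marked, and a few genes are not reported here. The list of 46 ganglion cell regulators also holds Jam2, an adhesion molecule. No replicate block was used: deviations of same-numbered KO and HET libraries correlated at -0.000465 for Brn3b at P3, 0.175 for Brn3a at P3 and 0.371 for Brn3b at E15, and nothing in the labels says that the numbers mark a shared source. Brn3a KO replicate 2, in the fit but not in the comparison, has a genotype entry that disagrees with its title. Alternatives tried were DESeq2 1.42.0, its size factors in edgeR, other sets of libraries, no filter, the block, and leaving out single libraries. Left out in turn were each library of the groups compared, and Brn3a KO replicate 2. The other libraries of the shared fit always stayed in. The self-written code was checked on simulated counts.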

Additional observations from a re-analysis of the deposited data

Results flagged for a closer look

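The effect of Brn3b loss differed between P3 and E15, by the edgeR interaction test at adjusted p under 0.05, in 32 genes. Among those named, the difference of log2 fold changes (P3 minus E15) was 3.02 for Adarb2, which was lower in KO at E15 alone, and -4.33 for Csmd3, which was lower in KO at P3 and higher at E15. Slc32a1 (-4.16), Th (-3.40) and Dlx1 (-1.84) were higher in KO at E15, with a smaller rise at P3 that did not pass for Slc32a1. Gsg1l (-3.36) and March4 (-3.35) were higher in KO at E15 as well. Their fold changes at P3 were negative and did not pass (-0.39 for Gsg1l and -1.07 for March4). Serpine2 (-1.59) and Cntn1 (-2.04) were called higher in KO at E15, and Cntn1 was called lower at P3. Pcdh10 (-2.23) was called lower in KO at P3 and was not called at E15.

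The effect of Brn3b loss differed from that of Brn3a loss at P3, by the same kind of test, in 2 genes. These were Pou4f2 (-4.01), the gene deleted in 1 of the comparisons, and Dlx1 (2.38), which was higher in Brn3b KO cells.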

How the results depend on the processing

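The number of genes called in Brn3b KO against HET at P3 (569, of which 44 higher and 525 lower) was 1549 with DESeq2 (299 higher, 1250 lower), 903 with the P3 libraries alone in the fit (850 lower) and 0 with the 4 compared libraries alone (0 higher, 0 lower; 3164 at an unadjusted p under 0.05). A replicate block gave 378 (23 higher, 355 lower); the numbers are not shown to pair the libraries, since same-numbered deviations had correlations of -0.000465 for Brn3b at P3, 0.175 for Brn3a at P3 and 0.371 for Brn3b at E15. Leaving out 1 library at a time gave 1 to 635 genes called, 0 to 72 higher and 1 to 563 lower. For the difference between ages (32 genes) the number was 347 with DESeq2, 101 without a filter, 6 with the 8 compared libraries alone and 12 with the block, and 1 to 71 without single libraries. For the difference between Brn3b and Brn3a (2 genes) it was 332 with DESeq2, 53 without a filter, 0 with the P3 libraries alone, 0 with the 8 compared libraries alone and 1 with the block, and 0 to 2 without single libraries. The causes were not tested. Of 110 genes examined 109 kept their sign in every alternative. Irx3 ran between -1.45 and 0.727 without single libraries, the positive value without HET replicate 2. The called genes among the 110 were chosen by their difference in these same libraries, so their kept sign is no separate support. With 2 libraries per group the precision of every fold change is limited, and counting error adds to that for genes at low levels.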

Other observations

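Besides Csmd3 and Cntn1, 3 genes were lower in Brn3b KO cells at P3 and higher at E15. Plcb1, a phospholipase of receptor signalling, had 22.4 and 28.7 CPM in KO and 65.4 and 99.7 CPM in HET at P3 (-1.69), and 35.6 and 30.6 CPM in KO and 15.1 and 9.07 CPM in HET at E15 (1.45). Ostf1 had 13.1 and 15.7 CPM in KO and 23.8 and 30.8 CPM in HET at P3 (-0.92), and 51.1 and 53.5 CPM in KO and 27.3 and 23.2 CPM in HET at E15 (1.05). Man1c1 differed by -0.88 at P3 and 1.13 at E15.

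Sst, the somatostatin gene, had 2.92 and 2.18 CPM in KO and 0.0807 and 0.389 CPM in HET at P3, a log2 fold change of 3.45 that just missed the threshold (adjusted p = 0.0545). Gm6984, the predicted gene called in both Brn3b and Brn3a comparisons, had 14.3 and 26.4 CPM in Brn3b KO and 4.38 and 3.26 CPM in Brn3b HET cells (2.41, adjusted p = 0.0406). It had 4.28 and 10.8 CPM in Brn3a KO cells and no count in either Brn3a HET library. Its unbound level at P3 was 19.3 CPM in Brn3b KO and 2.05 CPM in Brn3b HET cells, and the order was the opposite in the Brn3a unbound cells, at 1.80 CPM in KO and 19.6 CPM in HET. At E15 it had 20.06 and 12.99 CPM in Brn3b KO and 30.7 and 19.3 CPM in Brn3b HET bound cells, which overlap (adjusted p = 0.723).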
